A study of Homo sapiens with 6 samples.

Results

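The 10 genes described here encode enzymes of the methionine cycle (MAT2A, MAT2B, AHCY and MTR), of methionine salvage (MTAP), of transsulfuration (CBS and CTH) and of glutathione synthesis and use (GSS, GSR and GPX4). They were chosen by gene symbol, as the non-control probe sets that carry one of these symbols in the authors' annotation. Each of the 10 genes had 1 probe set, so they make up 10 of 28026 probe sets tested. Total RNA of MDA-468.shp53 cells was hybridised to 6 Affymetrix arrays that report 1 value per gene-level probe set. By its name this human line derives from the breast cancer line MDA-MB-468, which has mutant p53, and holds a short hairpin RNA against p53. The cells were grown in 3-dimensional culture for 8 days, without doxycycline (-DOX, 3 arrays) or with it (+DOX, 3 arrays), in 3 independent experiments that each gave 1 array per group. Doxycycline is the drug that switches on such hairpins, and both groups carry the hairpin construct. Cells given the drug without a hairpin were not analysed here, so drug and hairpin cannot be told apart, and the level of the hairpin's target is not reported here.

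The methionine cycle makes S-adenosylmethionine, the donor of most cellular methyl groups, and returns the homocysteine that is left after methyl transfer to methionine. Homocysteine can instead leave the cycle through transsulfuration, in which CBS joins it to serine and CTH splits the resulting cystathionine to release cysteine. Cysteine is the amino acid that limits glutathione, the main small thiol that protects cells from peroxides, and breast epithelial cells can also import it as cystine.

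The array medians over the tested probe sets lay between 7.45 and 7.56 on the log2 scale of the Robust Multichip Average (RMA), in which 1 unit is a doubling. All 7 epithelial markers checked (EPCAM, CDH1, EGFR and 4 keratins) had mean levels between 11.05 and 13.03. Fibroblast markers (7 genes) lay between 4.12 and 8.81 and blood and endothelial markers (6 genes) between 4.19 and 8.19. The log2 of the summed epithelial signal ranged from 15.31 to 15.44 without doxycycline and from 15.07 to 15.27 with it, and among these 7 genes only KRT8 passed the test, as a fall. For fibroblast markers the sums were 9.91 to 10.15 and 9.92 to 10.05, and for blood and endothelial markers 9.18 to 9.37 and 9.15 to 9.48. The keratins changed by -0.63 (KRT8), -0.37 (KRT19), -0.36 (KRT7) and -0.11 (KRT18). CDH1 (-0.098) and EPCAM (-0.025) changed less, and EGFR was higher with doxycycline in each experiment (0.22). The lower epithelial sum is therefore not shared by all these markers, and its part in the results below was not tested.

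CTH, which releases cysteine in the last step of transsulfuration, rose with doxycycline, and it was the 1 member of the 10 that passed the test. CTH read 7.68, 7.69 and 7.39 in the untreated arrays of experiments 1, 2 and 3, and 8.59, 9.59 and 9.71 in the treated arrays. The groups did not overlap, and the treated arrays were spread more widely (9.30 ± 0.61, SD, n = 3) than the untreated ones (7.59 ± 0.17, SD, n = 3). The change was 1.71 on the log2 scale (SE 0.23, 95% interval 1.17 to 2.25, limma adjusted p = 0.00416), a 3.27-fold rise. It ranked 11 among the rises of all 28026 probe sets. In bulk RNA, a change in the share of cells that express a gene and a change in RNA per cell cannot be told apart.

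The size of the CTH rise differed between experiments. Within experiment 1 CTH was 1.89-fold higher with doxycycline, within experiment 2 it was 3.73-fold higher and within experiment 3 it was 4.98-fold higher. Experiment 1 also had the smallest median difference, in absolute value, over the probe sets called in the whole table (0.44, against 0.56 and 0.60 in experiments 2 and 3). Those probe sets were called on these same differences. Over all probe sets the medians lay closer together, at 0.13, 0.15 and 0.18 in experiments 1, 2 and 3. Over the members they were 0.11, 0.20 and 0.14. The CTH differences had an SD of 0.72. The CTH call was lost with a trended and robust variance (limma adjusted p = 0.0533). It was also lost in the methods' t-test, which pairs the arrays by experiment (adjusted p = 0.323). There CTH missed the 1% level too (unadjusted p = 0.054). The probe set of CTH has 30 probes and spans chromosome 1 from 70649543 to 70678231 on the plus strand (NCBI build 36), where the annotation places the CTH transcripts.

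**Figure D1:**
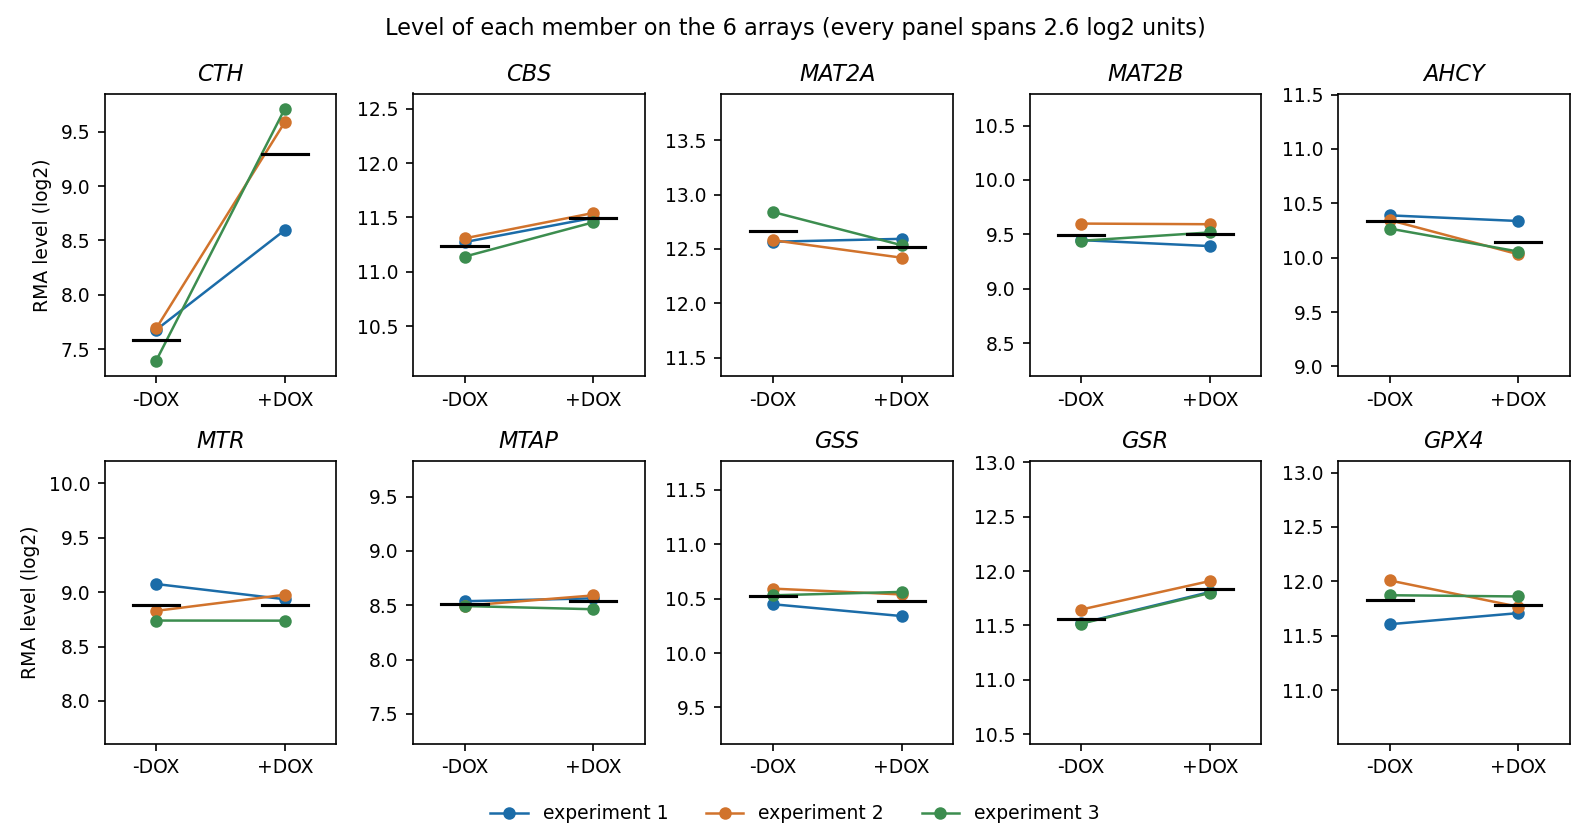
RMA level on the log2 scale (y axis) of each member in the 3 untreated (-DOX) and 3 treated (+DOX) arrays, with lines that join the arrays of 1 experiment and black bars at the group means. CTH climbs in each experiment, from a mean of 7.59 to 9.30, CBS and GSR are higher by small and even steps, and the other 7 members overlap between groups.

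Across the members, 1 of 10 rose and 0 fell by limma's test, with 2 at an unadjusted p under 0.05 besides CTH (GSR and CBS), both higher with doxycycline. That makes 3 of 10 members at an unadjusted p under 0.05, beside 24.5% of all probe sets. The methods' t-test also had no falls among the members at an unadjusted p under 0.05. Over all probe sets 12.8% passed, with 6.14% that rose and 6.63% that fell, so the share of members called was near the background and is no result about these genes as a group. The methods' t-test at the 1% level of the study's design text called GSR alone among the members, against 4.16% of all probe sets. The median change of the members was 0.0038, beside -0.012 over all probe sets. The median absolute change was 0.098, beside 0.10 over all probe sets.

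CBS, which commits homocysteine to transsulfuration, differed little. Its untreated arrays read 11.27, 11.31 and 11.14, and its treated arrays 11.50, 11.54 and 11.45. The groups did not overlap, and each treated array was higher than each untreated one. The change was 0.26 (SE 0.082, 95% interval 0.066 to 0.45) and missed the threshold (limma unadjusted p = 0.0152, adjusted p = 0.0899). In fold terms the interval runs from 1.05-fold to 1.36-fold. The 44 probes of CBS span chromosome 21 from 43346370 to 43369541 on the minus strand (build 36).

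Both transsulfuration genes were therefore higher in the treated array of each experiment, but by unlike amounts. The change of CTH exceeded that of CBS by 0.70, 1.66 and 2.0 in experiments 1, 2 and 3, a mean of 1.45 ± 0.68 (SD, n = 3). An exact sign-flip test gave p = 0.25 (two-sided), which is the smallest p that 3 pairs can give, so it cannot decide whether the changes differ. The contrast is between measured signals, and probe sets differ in their response. Within each experiment CTH changed by more than any of the other 9 members, whose differences ran from -0.14 to 0.29 in experiment 1, from -0.31 to 0.26 in experiment 2 and from -0.31 to 0.32 in experiment 3.

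The promoters of the transsulfuration pair are shown because these enzymes act in sequence and differed in the size of their measured change. Both come from RefSeq on GRCh38.p14 and run from 250 bases before to 50 bases after a transcript start, 5′ to 3′ on the gene's strand. The CTH window is chr1:70411018-70411317 on the plus strand, with 61.7% G and C. The CBS window, the most upstream of 3 listed starts, is chr21:43076328-43076627 on the minus strand, with 80.7% G and C. Capitals mark the match to the antioxidant response element core.
CTH: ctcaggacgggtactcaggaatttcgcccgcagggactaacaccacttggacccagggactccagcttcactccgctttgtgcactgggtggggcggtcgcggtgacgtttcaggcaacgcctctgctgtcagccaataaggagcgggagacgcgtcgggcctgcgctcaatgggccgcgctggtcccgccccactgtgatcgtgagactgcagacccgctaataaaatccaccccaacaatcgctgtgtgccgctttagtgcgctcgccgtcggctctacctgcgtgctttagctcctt
CBS: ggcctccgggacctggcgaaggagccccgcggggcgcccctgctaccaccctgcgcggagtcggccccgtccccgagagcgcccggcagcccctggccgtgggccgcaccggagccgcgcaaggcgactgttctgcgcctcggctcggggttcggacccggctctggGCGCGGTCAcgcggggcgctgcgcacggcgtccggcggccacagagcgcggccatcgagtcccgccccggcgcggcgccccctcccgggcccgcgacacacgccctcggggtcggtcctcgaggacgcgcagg

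Of the members, 8 matched the RefSeq promoter table, with 16 windows. GSS and GSR had no window there and were not searched. Each window was searched on both strands for TGATGNAA, the core of the composite element read by C/EBP and ATF factors, for TGACNNNGC, the core of the antioxidant response element, and for the E-box CACGTG, where N is any base. No TGATGNAA or CACGTG lay in any of the 16 windows, and these letters occur in 3.62% and 7.26% of all 35116 windows. TGACNNNGC was found in 1 of the 16, the CBS window above, on the opposite strand at bases -83 to -75 (counted from 0 at the transcript start), against 13.3% of all windows. Windows of the same gene can overlap, as for MTR and GPX4, so the 16 are not all separate promoters. The CTH window held none of the 3 motifs. A match or its absence here describes these letters in this window only.

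**Figure D2:**
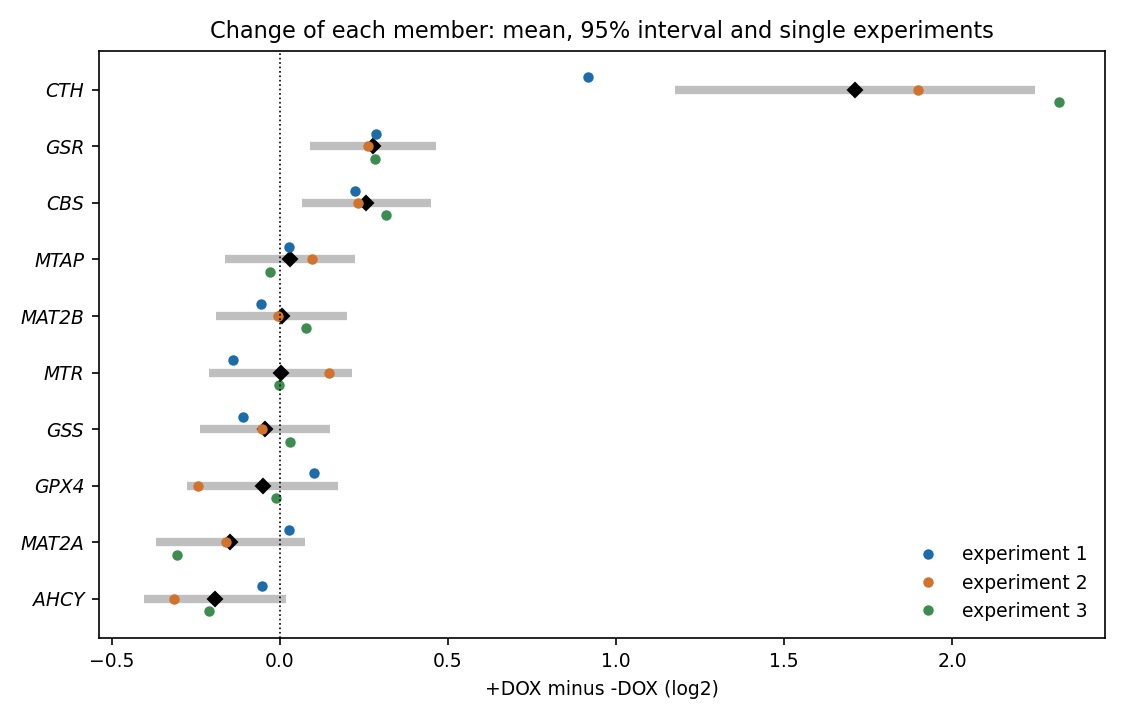
Change of each member, as +DOX minus -DOX on the log2 scale (x axis), with black diamonds at the mean, grey bars for limma's 95% interval and coloured points for the single experiments. The interval of CTH starts at 1.17, those of GSR and CBS lie narrowly above 0, and the other 7 include 0.

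In the methionine cycle, MAT2A and MAT2B, the catalytic and regulatory subunits of the synthetase that makes S-adenosylmethionine outside the liver, did not pass the test. MAT2A read 12.57, 12.58 and 12.84 without doxycycline and 12.59, 12.42 and 12.53 with it. Its groups overlapped, and the treated array was lower in experiments 2 and 3 but not in experiment 1. The change was -0.15 (SE 0.095, 95% interval -0.37 to 0.075, limma adjusted p = 0.443). RefSeq lists 1 pseudogene of MAT2A.

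MAT2B read 9.45, 9.60 and 9.44 in the untreated arrays and 9.39, 9.59 and 9.52 in the treated arrays. Its change was 0.0053 (SE 0.083, limma adjusted p = 0.988), with an interval of -12.2% to 14.8%. MAT2A lies on chromosome 2 and MAT2B on chromosome 5, so they are separate loci, with probe sets of 26 and 33 probes.

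AHCY splits S-adenosylhomocysteine, the product that inhibits methyltransferases, into adenosine and homocysteine. Its untreated arrays read 10.39, 10.35 and 10.27 and its treated arrays 10.34, 10.03 and 10.06. The treated array was lower in each experiment, by 0.052, 0.31 and 0.21, yet the groups overlapped through the treated array of experiment 1. AHCY was the 1 member with a lower value in all 3 experiments, and 3 others (CTH, CBS and GSR) were higher in all 3, beside 42.6% of all probe sets with 1 sign in all 3 experiments. The change of -0.19 (SE 0.09, 95% interval -0.40 to 0.017) did not pass (limma adjusted p = 0.249). RefSeq lists 8 pseudogenes of AHCY, so its signal may include near-identical transcripts.

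MTR, the vitamin B12-dependent methionine synthase, regenerates methionine from homocysteine. It read 9.08, 8.83 and 8.74 without doxycycline and 8.94, 8.98 and 8.74 with it. The sign of its difference was not shared by the experiments, and the mean change was 0.0023 (SE 0.091, limma adjusted p = 0.994). Its interval ran from -13.6% to 16.1%. For MTR the experiments differed more than the groups, with pair means from 8.74 to 9.01, a range of 0.27.

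MTAP returns the methylthioadenosine left by polyamine synthesis towards methionine. Its levels were 8.54, 8.50 and 8.49 in untreated and 8.56, 8.59 and 8.46 in treated arrays. The groups overlapped, and the change was 0.031 (SE 0.083, 95% interval -0.16 to 0.22, limma adjusted p = 0.91). The MTAP probe set spans chromosome 9 from 21792635 to 22022985 (build 36) and also lists a transcript of a neighbouring long noncoding RNA gene, so its 41 probes may not all report MTAP. RefSeq also lists 2 pseudogenes of MTAP.

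Among the glutathione enzymes, GSR, which reduces oxidised glutathione with NADPH, was higher in each treated array than in any untreated array. It read 11.52, 11.65 and 11.52 without doxycycline and 11.81, 11.91 and 11.80 with it. The 3 differences were close to each other (0.29, 0.26 and 0.28), the narrowest spread of any member (SD 0.013). The mean change was 0.28 (SE 0.081, 95% interval 0.089 to 0.47), or 1.21-fold, and it missed the threshold (limma unadjusted p = 0.00993, adjusted p = 0.067). GSR did pass when only probe sets above the median level were tested (limma adjusted p = 0.0381) and with a trended and robust variance (limma adjusted p = 0.0339). It also passed the 1% level of the methods' t-test (unadjusted p = 0.000738), but not after adjustment of that test (adjusted p = 0.203).

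GSS, the synthetase that adds glycine in the final step of glutathione synthesis, did not pass. Its values were 10.45, 10.59 and 10.53 in untreated arrays and 10.34, 10.54 and 10.56 in treated arrays. The groups overlapped, with a change of -0.044 (SE 0.083, limma adjusted p = 0.861) and an interval of -15.2% to 11.0%.

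GPX4 is the selenoprotein that uses glutathione to reduce lipid peroxides in membranes and so protects cells from ferroptosis. It read 11.61, 12.01 and 11.87 without doxycycline and 11.71, 11.77 and 11.86 with it. The treated array was higher in experiment 1 and lower in experiments 2 and 3, and the groups overlapped. The change was -0.05 (SE 0.096, 95% interval -0.27 to 0.17, limma adjusted p = 0.862). Pair means of GPX4 ranged over 0.23 between experiments, more than the change between groups.

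In 3 of the 10 members, CTH, CBS and GSR, the groups did not overlap, all of them higher with doxycycline. Over all probe sets 24.9% had groups that did not overlap, and 11.4% did so with the treated group higher. For 7 of the 10 members the range of the pair means over the experiments was larger than the change between the groups. Ordered by change, CTH (1.71) was followed by GSR (0.28), CBS (0.26), MTAP (0.031), MAT2B (0.0053), MTR (0.0023), GSS (-0.044), GPX4 (-0.05), MAT2A (-0.15) and AHCY (-0.19). The intervals of neighbours in that order overlap each other from GSR to AHCY. Levels are compared between groups for each gene and not between genes, since probe sets differ in their response.

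**Figure D3:**
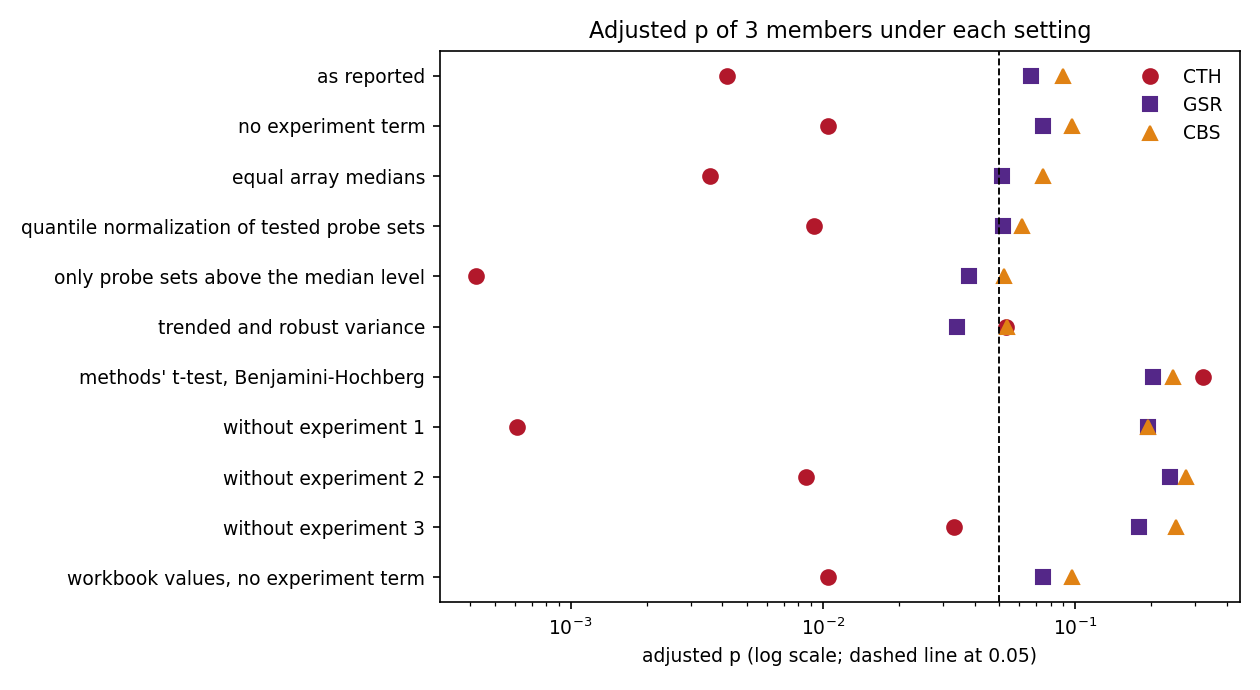
Adjusted p on a log scale (x axis) of CTH, GSR and CBS as reported and under 10 alternatives (y axis), with a dashed line at 0.05. CTH lies left of the line in all settings but the trended and robust variance and the methods' t-test, GSR crosses to the left in 2 settings and CBS in none. The setting with workbook values repeats the one without the experiment term.

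By the rule fixed for likeness, the genes whose 3 within-experiment differences lay closest to those of CTH were ZMAT4, GPAT3, NFIL3, LOC554203 (named as in the file) and SNHG12, with root mean square distances of 0.20, 0.21, 0.23, 0.24 and 0.25 on the log2 scale. ZMAT4, a zinc finger gene, differed by 0.96, 1.92 and 1.98 in experiments 1, 2 and 3. GPAT3, an acyltransferase of glycerolipid synthesis, differed by 0.97, 2.0 and 1.97, and NFIL3, a basic leucine zipper transcription factor, by 0.97, 1.80 and 1.93. These genes were picked for differences like those of CTH, so their rise and its pattern over the 3 experiments follow from the choice and are a description.

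The genes that surround these enzymes were taken from 7 lists of 100 genes, of which 97 were measured. Of these, 11 rose, 11 fell and 75 did not pass, which is 22.7%, beside 16.0% over all 19901 named genes (8.0% in each direction). Their median change was -0.00014, beside -0.0025 over all named genes. The lists were chosen with earlier results of these data known, so these shares are a description. Without experiment 3 the lists held 4 rises and 3 falls, without experiment 2 they held 5 and 6, and without the experiment term 7 and 7.

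In the list of methionine cycle and methyl transfer genes 2 of 12 rose and none fell (median change 0.06). MTRR, the reductase that reactivates methionine synthase, read 10.77, 10.81 and 10.90 without doxycycline and 11.08, 11.68 and 11.50 with it, a change of 0.59 (SE 0.12, limma adjusted p = 0.0163). MTR, the enzyme it serves, did not pass, as described above. NNMT, which spends S-adenosylmethionine on nicotinamide, rose by 0.39 (SE 0.088, limma adjusted p = 0.027), although its groups overlapped. The MTRR and NNMT calls were lost without the experiment term and without experiment 2 or 3 (adjusted p up to 0.0923 and 0.253), and the NNMT call also without experiment 1.

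Among 14 genes of polyamine synthesis and methionine salvage 1 rose and 2 fell (median change 0.039). SMOX, which oxidises spermine, rose by 0.92 (SE 0.086, limma adjusted p = 0.00118), from 8.45, 8.58 and 8.46 to 9.27, 9.59 and 9.39. MRI1, the isomerase that follows MTAP in methionine salvage, fell by 0.51 (SE 0.097, limma adjusted p = 0.0147), from 9.81, 10.03 and 9.92 to 9.49, 9.35 and 9.38. OAZ2, an antizyme of ornithine decarboxylase, fell by 0.41 (SE 0.081, limma adjusted p = 0.0173). MRI1 did not pass without experiment 2 or 3, and OAZ2 did not without the experiment term or in any fit on 2 experiments (adjusted p at most 0.0841 and 0.0889).

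In the list for cysteine uptake and breakdown 2 of 14 rose and 2 fell (median change -0.058). Both chains of the cystine importer rose. The transport chain SLC7A11 changed by 0.68 (SE 0.11, limma adjusted p = 0.00818), with groups that overlapped at 9.91, 9.21 and 9.09 against 10.31, 10.06 and 9.87. Its partner SLC3A2, which also serves other transporters, changed by 0.63 (SE 0.081, limma adjusted p = 0.0037). SUOX, the sulfite oxidase, fell by 0.61 (SE 0.081, limma adjusted p = 0.00395), and SQOR, the sulfide oxidoreductase of mitochondria, fell by 0.58 (SE 0.081, limma adjusted p = 0.00482). The SLC7A11 call was lost without the experiment term and without experiment 3 (adjusted p up to 0.112).

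The list for glutathione synthesis, breakdown and reduction had 4 rises and 4 falls among 21 genes (median change 0.069). GCLC and GCLM, the subunits of the ligase that precedes GSS, read 10.03, 10.05 and 9.89 and 8.10, 8.37 and 8.21 without doxycycline. With it they read 10.77, 10.88 and 10.80 and 8.96, 9.34 and 9.55, so both were higher in each treated array, while GSS was not. ANPEP, a surface aminopeptidase that can split the cysteinylglycine left by glutathione breakdown, fell by 1.03 (SE 0.15, limma adjusted p = 0.00573) and GGT6, of the gamma-glutamyltransferase family, by 0.59 (SE 0.096, limma adjusted p = 0.00875), both calls lost without experiment 3 (adjusted p = 0.056 and 0.0574). The remaining calls, named after their values were seen, were rises of CHAC1, a glutathione-degrading enzyme (0.46), and of the glutaredoxin GLRX3 (0.42), and falls of GGT5 (-0.52) and GGT7 (-0.45). Each of these 4 calls was lost without experiment 2 and without experiment 3 (adjusted p up to 0.185 over the alternatives). GGT5 belongs to a family with close copies, so its value is uncertain.

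Among 8 other peroxidases that include PRDX6 none passed, with 1 of 8 at an unadjusted p under 0.05 (beside 24.5% of all probe sets), GPX8 (-0.26, SE 0.085, limma adjusted p = 0.103), and the next was GPX2 (-0.14, SE 0.096, limma adjusted p = 0.467). Of 20 glutathione S-transferases 3 fell and none rose (median change -0.11). MGST3, a membrane-bound transferase, fell by 0.88 (SE 0.083, limma adjusted p = 0.00121), GSTO1 by 0.56 (SE 0.11, limma adjusted p = 0.0151) and GSTM4 by 0.45 (SE 0.093, limma adjusted p = 0.0195). GSTM genes are related, and whether the probes tell them apart was not checked, so the GSTM4 value is uncertain. The GSTO1 call was lost without experiment 2 or 3 (limma adjusted p up to 0.0744). The GSTM4 call was lost without experiment 1 or 3 and without the experiment term (limma adjusted p up to 0.098). Among 8 genes that make and insert selenocysteine, the residue in the active site of GPX4, 2 rose and none fell (median change 0.27). These were SCLY, which recycles selenium (0.41, SE 0.09, limma adjusted p = 0.0242), and PSTK, the kinase of the selenocysteine tRNA (0.41, SE 0.088, limma adjusted p = 0.0242), both lost without experiment 2 or 3, and SCLY also without experiment 1 (adjusted p up to 0.154 and 0.117). The calls of SMOX, SLC3A2, SUOX, SQOR, GCLC, GCLM and MGST3 held in all 9 limma alternatives. None of these genes passed the methods' t-test after adjustment. At its 1% level GCLM missed too (unadjusted p = 0.0193), and the others passed. The alternative on the workbook values repeats the one without the experiment term, because the values are the same.

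**Figure D4:**
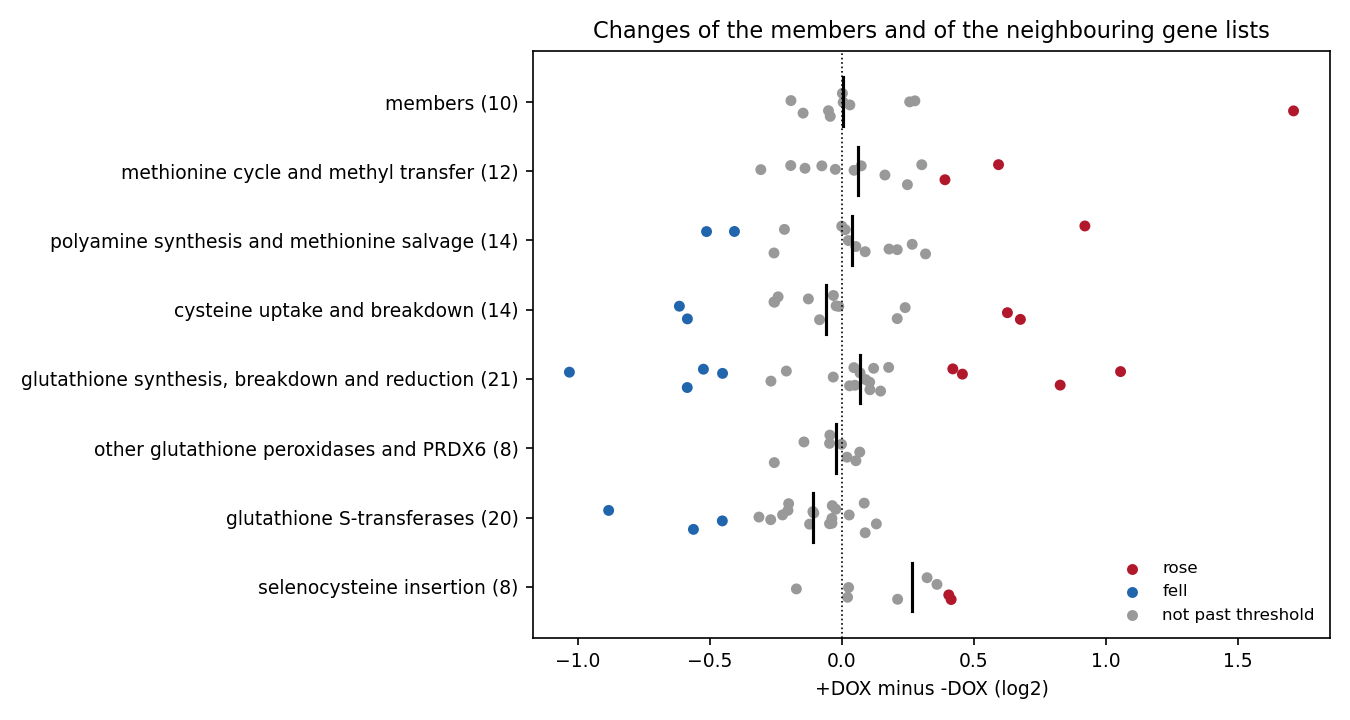
Change, as +DOX minus -DOX on the log2 scale (x axis), of the members and of each measured gene in 7 neighbouring lists (y axis, number of genes in brackets), with red for rises, blue for falls, grey for genes that did not pass and black bars at the medians. CTH stands at 1.71 to the right of all the other genes plotted, and the coloured points among the S-transferases are all falls.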

How the data were processed

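The values deposited by the authors are log2 expression per probe set from RMA, which corrects background, brings arrays to a common distribution and summarises probes. RMA and R 2.11.1 are named in the submitters' processing notes. The deposited workbook holds the same log2 values (largest difference 5.0e-09), without replicate numbers. Of 33297 probe sets, 976 had no values and 4428 were controls, with 133 in both groups. The other 28026 were tested with lmFit and eBayes of limma 3.58.1 (R 4.3.3), +DOX minus -DOX, with the experiment as a term and Benjamini-Hochberg adjustment over all of them (threshold 0.05). No filter was set on dim probe sets. Every member was tested, also in the alternative with only probe sets above the median level. Pairing follows the design text, and the deviations of paired arrays from their group means correlated at 0.482, 0.165 and 0.0993. Replicates are independent experiments, and the number of arrays, not a depth, limits precision. Neighbouring genes were named through RefSeq accessions and symbols (GRCh38.p14, names only), taking for each gene its probe set of highest mean. Coordinates are the file's, in NCBI build 36 by its chromosome accessions.

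The members and lists were chosen with earlier results of these data known. Named were all members, per list up to 4 genes that passed, by lowest p (or the lowest 2 where none did), and the 5 genes closest to CTH. Alternatives were other scalings, a filter on dim probe sets, another variance model, no experiment term, the methods' t-test and each experiment left out.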

Additional observations from a re-analysis of the deposited data

How the results depend on the processing

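Of 110 member values under 11 alternatives, 99 had the same direction and side of the threshold as reported. These alternatives are not all distinct. The workbook values repeat the fit without the replicate block, and the methods' t-test enters both after adjustment and at the 1% level. CTH (1.71) missed the threshold with a trended and robust variance (adjusted p = 0.0533) and in the methods' t-test, adjusted or at the 1% level. GSR (0.28) passed with probe sets above the median level only, with the trended and robust variance and at the 1% level of the methods' t-test. MAT2B turned to -0.013 with quantile normalization, and the cause was not tested. With 1 experiment left out, CTH ranged from 1.41 to 2.107, MAT2B from -0.030 to 0.035, MTR from -0.070 to 0.073, MTAP from -0.0015 to 0.061 and GPX4 from -0.13 to 0.045, so the last 4 changed sign, none of them having passed in any fit.

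The members that rose numbered 2 with probe sets above the median level only and 0 after adjustment of the methods' t-test. Over the whole table (3580 calls), that t-test called 0 after adjustment, 1165 at the 1% level and 4449 at an unadjusted p under 0.05. Leaving out 1 experiment gave 1355 to 2853 calls, the lowest without experiment 3. Genes of the neighbouring lists, whose alternatives were chosen after seeing the data, numbered 7 rises and 7 falls with no replicate block (also from the workbook values), 0 and 0 in the adjusted t-test and 3 and 4 at its 1% level. With 1 experiment left out they numbered 4 to 8 rises and 3 to 8 falls. Without the replicate block, which pairs arrays by experiment, 2409 probe sets passed and no call of a member changed (CTH adjusted p = 0.0105). Each member had 1 probe set, so no other probe set could be tried. With 3 arrays per group, changes as small as those of CBS and GSR lie near the limit of what passes.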
